A study of Homo sapiens with 6 samples.

Results

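The BEX (brain expressed X-linked) and TCEAL (transcription elongation factor A-like) genes are a family of small X-linked genes. They were followed here in CAPAN-2 cells, a cultured line that came from a human pancreatic ductal adenocarcinoma. The 10 genes BEX1, BEX2, BEX3, BEX4, BEX5, TCEAL1, TCEAL3, TCEAL4, TCEAL8 and TCEAL9 were taken by symbol from the 67140 Ensembl genes of the deposited RNA-seq table. The family was chosen by the measured fold changes of BEX2 and BEX4 in this same contrast, which are among the largest falls, so the values of those 2 genes are given as a description, without a test. Of the 6 libraries, 3 were labelled SIRT4 overexpression and 3 control without SIRT4 overexpression, all in CAPAN-2 with no other allele or agent named. The sources used here do not give the vector, its promoter, the time of overexpression or whether the cells were 1 clone. Nothing in the labels ties replicates to separate cultures, so a p-value covers only library-to-library spread, part of which may be technical.

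BEX and TCEAL genes lie in clusters on the long arm of the X chromosome, beside the related ARMCX and GPRASP genes, and encode short proteins with few folded domains. BEX proteins are known mainly from neural tissue and from cancer cells. BEX1 and BEX3 bind the neurotrophin receptor p75NTR, BEX2 has been tied to survival signalling, and BEX1 and BEX2 are silenced by promoter methylation in glioma. TCEAL proteins are named for similarity to TFIIS, the elongation factor that restarts stalled RNA polymerase II.

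Total estimated counts ran from 51999089 to 65156041 in SIRT4 libraries and from 50945991 to 57626801 in control libraries. SIRT4 itself, a mitochondrial sirtuin, was at 3.31, 2.80 and 3.60 CPM in SIRT4 libraries, against 2.47, 1.96 and 1.83 CPM in control libraries. Levels in CPM were computed with TMM-scaled library sizes. The groups did not overlap for SIRT4, with a log2 fold change of 0.63 (SE 0.21). SIRT4 was not called by the edgeR quasi-likelihood fit (adjusted p = 0.0752). Of 15 alternative settings, listed below, it was called in 1, the DESeq2 Wald test (adjusted p = 0.0384). It was not called by limma-voom (adjusted p = 0.0721), with the replicate block (edgeR adjusted p = 0.121) or when any 1 library was left out. The overexpression label thus had weak support from the SIRT4 transcript itself. Of 10 ductal epithelial markers 9 were tested, 3 of them higher (KRT8, KRT18 and KRT19) and 1 lower (SOX9). Over all tested genes, 9.38% were called higher and 7.67% lower. Summed levels of the ductal markers were 4545 to 4676 CPM in SIRT4 libraries and 2418 to 3066 CPM in control libraries. Of 10 fibroblast markers 5 were tested and none was called, with summed levels of 190 to 196 CPM in SIRT4 libraries and 185 to 203 CPM in control libraries, with FAP, DCN and COL1A2 listed at 0. Of 6 leukocyte markers 2 were tested and none was called, with summed levels of 3.11 to 4.34 CPM in SIRT4 libraries and 2.09 to 3.22 CPM in control libraries, and CD3E was listed at 0. The part of any of these markers in the members' values was not tested.

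The sequences just before the starts of BEX4 and BEX2 are shown first. These are the members with the largest differences, and their promoters are close copies of each other. Whether the promoter sequences have a part in the fold changes was not tested. Each line gives 73 bases, from position 100 to position 28 before the RefSeq start (GRCh38.p14), 5′ to 3′ on the gene's strand. BEX4 is taken from chrX:103215008-103215080 on the plus strand, at the further downstream of its RefSeq starts, and BEX2 from chrX:103311018-103311090 on the minus strand. Capitals mark the longest run that the pair shares without a difference, 45 bases from position 84 to position 40 before each start.
BEX4: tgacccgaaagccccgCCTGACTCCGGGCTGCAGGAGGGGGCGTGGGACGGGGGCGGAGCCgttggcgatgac
BEX2: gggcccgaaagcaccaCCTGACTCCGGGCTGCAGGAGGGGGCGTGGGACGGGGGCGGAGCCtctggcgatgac
Of the BEX2 line, 29 bases lie in an exon of the longer transcript that GENCODE release 29 annotates. Aligned over the whole 100 bases before each start, the pair had 92 identical bases. The run of 45 bases was found, on either strand, in the promoters of 2 genes of the 27305 in the table, BEX2 and BEX4.

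Among the 45 pairs of members, the median was 54 identical bases and the lowest 45. After BEX2 and BEX4, the closest pairs were BEX1 with BEX3, at 77 identical bases, and TCEAL8 with TCEAL9, at 75. BEX4 had 54 identical bases with BEX3 and 55 with BEX1, and BEX2 had 52 with BEX3 and 50 with BEX1. By alignment score against the other 27304 genes with a promoter in the table, BEX2 and BEX4 were each other's nearest, at 92, and the next gene scored 57.5 for BEX4 and 55.5 for BEX2. ARMCX4 was the nearest to BEX1, at 86, and to BEX3, at 80. A close promoter copy is therefore not particular to BEX2 and BEX4.

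**Figure D1:**
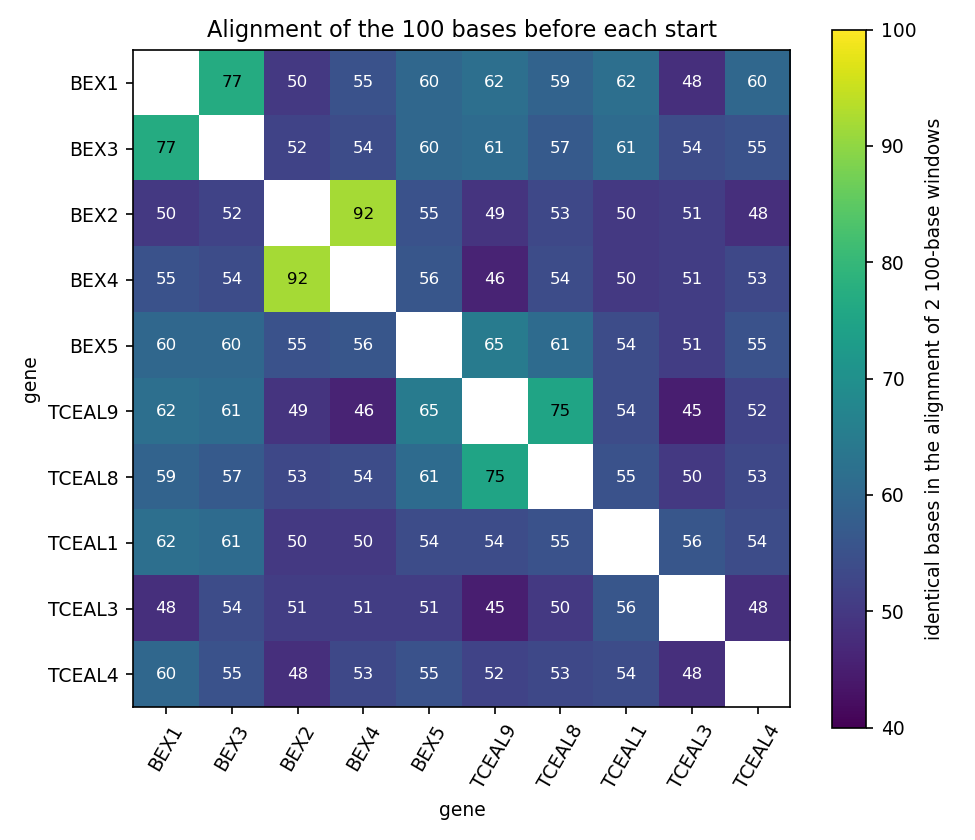
Pairwise alignments of the 100 bases before the RefSeq starts of the 10 members, where each cell gives the number of identical bases for the best pair of starts. BEX2 with BEX4 (92), BEX1 with BEX3 (77) and TCEAL8 with TCEAL9 (75) stand out from a median of 54.

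For comparison, 81 bases, from position 100 to position 20 before the start, are shown for TCEAL8 (chrX:103255175-103255255, minus strand, 29 of them in an annotated exon), which lies between BEX4 and BEX2, and for TCEAL9 (chrX:103356406-103356486, plus strand), which lies next to BEX2 among the tested members. Capitals mark the hexamer CACGTG, which reads the same on either strand.
TCEAL8: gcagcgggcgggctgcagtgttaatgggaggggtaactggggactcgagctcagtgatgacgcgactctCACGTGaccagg
TCEAL9: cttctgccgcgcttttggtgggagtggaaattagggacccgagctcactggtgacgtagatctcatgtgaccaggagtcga
CACGTG was found in the 300-base promoters of 8 of 10 members and of 8.77% of the 27305 genes in the table. BEX4 and BEX2 carry it as well, from position 19 before the start, past the bases shown. The longer TCACGTGA, which contains CACGTG, was found in 6 members (BEX1, BEX3, TCEAL1, TCEAL3, TCEAL4 and TCEAL8) and in 1.18% of all genes. A longer motif, TGACG followed by 6 free bases and then TCACGTGA, was searched on both strands and contains both shorter motifs. It was found in 9 genes, which were TCEAL3, TCEAL8, the relatives TCEAL2, TCEAL5, TCEAL6, ARMCX1 and ARMCX6, and also MARCHF8 and LOC105373299. With 8 free bases in place of 6, it was found in 4 genes, which were BEX1, BEX3, TCEAL1 and ARMCX4. No source outside these promoters is given for the motif or its spacings, so its matches in members are a description. A match is a match of letters only, and binding was not measured here.

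Of the 10 members, 9 passed the low-count filter and BEX1 did not. In the edgeR quasi-likelihood fit, called at a Benjamini-Hochberg p under 0.05 over all 20786 tested genes, 3 tested members were lower, none was higher and 6 were not called. The background share was 7.67% called lower, 9.38% called higher and 17.1% called in either direction. Lower by at least 2-fold were 2 of the 9, beside a background of 1.12%. BEX2 and BEX4 entered the list with this contrast known, so nothing is read from the count. Of the tested members, 8 had a log2 fold change below 0 and 1 above. Their median was -0.10, beside -0.02 for all tested genes.

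BEX4, whose protein has been reported to sit on microtubules and to hold back the deacetylation of alpha-tubulin by SIRT2, was at 1.26, 1.48 and 1.76 CPM in SIRT4 libraries, against 7.36, 8.13 and 6.88 CPM in control libraries. Every SIRT4 library lay below every control library, and the gap between the groups was wider than the spread inside either. The deposited estimated counts were 82, 76 and 102 in SIRT4 libraries and 430, 419 and 399 in control libraries. BEX4 (ENSG00000102409, GRCh38 chromosome X, 103215092 to 103217246, plus strand) thus had a log2 fold change of -2.31 (SE 0.18). By size it was number 23 of 1595 genes called lower, and number 3 of the 1404 of them with at least 5 CPM in control libraries.

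BEX2 was at 6.66, 8.41 and 7.49 CPM in SIRT4 libraries, against 36.1, 26.1 and 23.9 CPM in control libraries. The SIRT4 libraries were again all below the control libraries, and control replicate 1 was the highest of the 6. Its deposited estimated counts were 433 in each of the 3 SIRT4 libraries and 2106, 1343 and 1389 in control libraries. BEX2 (ENSG00000133134, chromosome X, 103309346 to 103311046, minus strand) had a log2 fold change of -1.93 (SE 0.17). By size it was number 42 of the 1595 genes called lower, and number 7 of the 1404. The choice of BEX2 for its fall partly fixed these places as well. In bulk RNA, fewer cells that express a gene and less RNA per cell cannot be told apart.

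**Figure D2:**
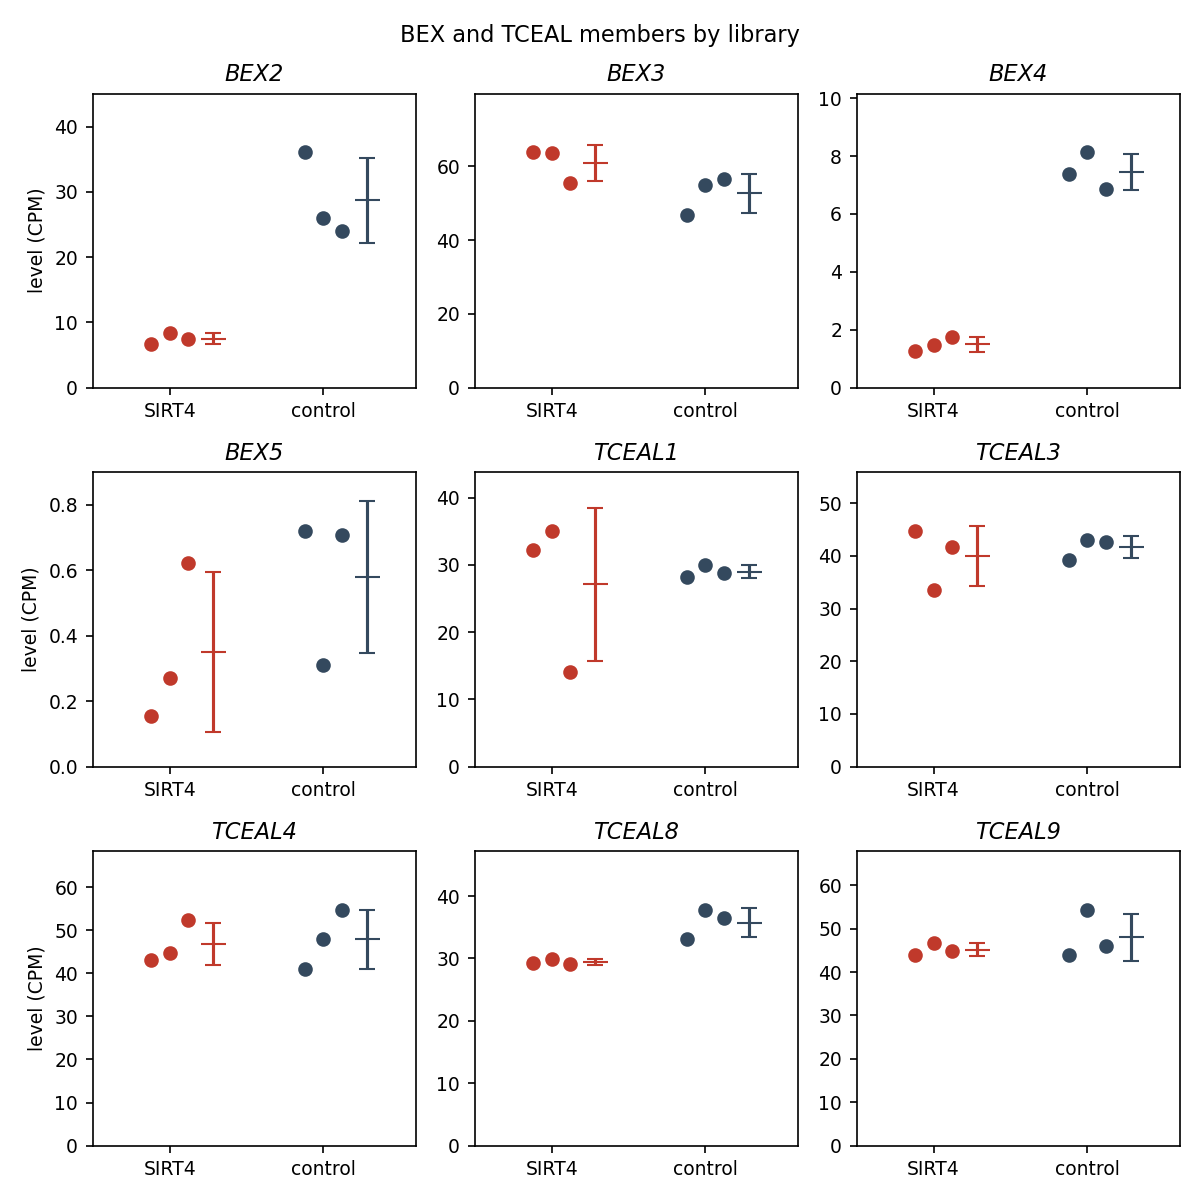
Level in CPM of the 9 tested members in each SIRT4 library (red, left) and control library (dark, right), with the group mean and SD beside the points. BEX2 and BEX4 are lower in every SIRT4 library, the TCEAL8 groups stand apart by a small margin, and the remaining 6 members overlap between groups.

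BEX3 (ENSG00000166681, chromosome X, 103376340 to 103378077, plus strand), the p75NTR-associated member also called NADE, was the most abundant and the only tested member with a log2 fold change above 0. It was at 63.8, 63.6 and 55.5 CPM in SIRT4 libraries, against 46.7, 54.9 and 56.5 CPM in control libraries. The groups overlapped through SIRT4 replicate 3, and the log2 fold change of 0.21 (SE 0.09) did not pass (edgeR adjusted p = 0.168). BEX5 was near the limit of measurement, with deposited estimated counts of 10, 14 and 36 in SIRT4 libraries and 42, 16 and 41 in control libraries. Its log2 fold change of -0.73 had an SE of 0.63 (edgeR adjusted p = 0.494). BEX1 was listed at 0 in all 6 libraries, and 3 counts in a library, the limit a count of 0 allows, would be 0.0461 to 0.0582 CPM. That limit covers counting error only and takes 1 unit of the table as 1 count. How many units stand for 1 fragment is unknown, and with several units to a fragment the limit would be higher.

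Within a library, the ratio of 2 members does not depend on the scaling between libraries. BEX2 stood at 10.4%, 13.2% and 13.5% of the BEX3 count in SIRT4 libraries, against 77.2%, 47.5% and 42.4% in control libraries. The BEX4 count was 1.98%, 2.32% and 3.18% of BEX3 in SIRT4 libraries, against 15.8%, 14.8% and 12.2% in control libraries. Neither ratio overlapped between the groups. BEX4 as a share of BEX2 was 18.9%, 17.6% and 23.6% in SIRT4 libraries, against 20.4%, 31.2% and 28.7% in control libraries. Those ranges overlap. BEX2 and BEX4 were both chosen for their falls in this contrast, so these ratios are a description that the choice partly fixed.

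Summed over the 5 BEX members, the level was 71.9, 73.8 and 65.3 CPM in SIRT4 libraries, against 90.9, 89.4 and 88.0 CPM in control libraries. The sum contains BEX2 and BEX4 and is given as a description. BEX1, BEX3 and BEX5 alone summed to 61.3 ± 4.5 CPM in SIRT4 libraries and 53.3 ± 5.1 CPM in control libraries (SD, n = 3 each), and these groups overlapped. BEX3 made up 86.6% ± 2.0 of the BEX counts in SIRT4 libraries and 59.0% ± 6.7 in control libraries (SD, n = 3 each). BEX2 made up 10.7% ± 1.3 of them in SIRT4 libraries and 32.0% ± 6.7 in control libraries.

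**Figure D3:**
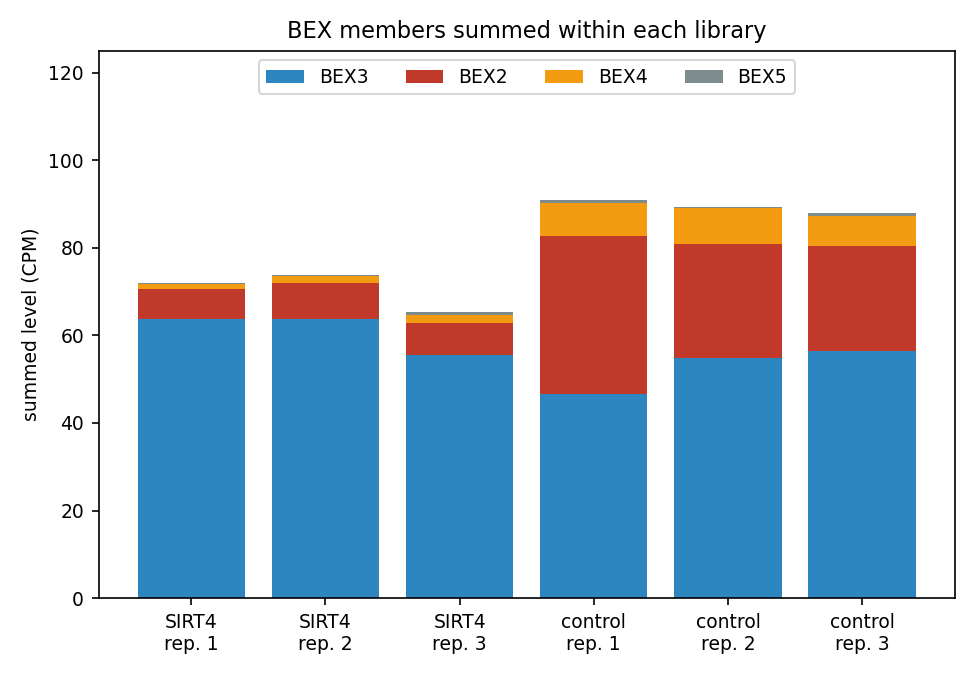
Summed level in CPM of the BEX members in each library, stacked by gene, with BEX1 at 0. The sums are 65.3 to 73.8 CPM in SIRT4 libraries and 88.0 to 90.9 CPM in control libraries, and the BEX2 and BEX4 segments are smaller in each SIRT4 library.

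TCEAL8 (ENSG00000180964, chromosome X, 103252995 to 103255203, minus strand) was the other member that passed the threshold. It was at 29.3, 29.9 and 29.1 CPM in SIRT4 libraries, against 33.1, 37.7 and 36.4 CPM in control libraries. No SIRT4 library reached a control library, though the distance was small. Groups did not overlap for 3 of the 9 tested members, the ones called lower, beside 37.6% of all tested genes. TCEAL8 fell by 0.28 on the log2 scale (SE 0.08, edgeR adjusted p = 0.0386). That call was lost when any 1 of 5 libraries was left out, with edgeR adjusted p-values of 0.0973 without SIRT4 replicate 1, 0.0928 without SIRT4 replicate 2, 0.115 without SIRT4 replicate 3, 0.107 without control replicate 2 and 0.116 without control replicate 3.

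TCEAL9, also known as the WW domain-binding protein WBP5, was at 43.9, 46.8 and 44.8 CPM in SIRT4 libraries, against 44.0, 54.2 and 46.0 CPM in control libraries. TCEAL4 was at 43.1, 44.8 and 52.3 CPM in SIRT4 libraries, against 41.0, 47.9 and 54.6 CPM in control libraries. For both genes the groups overlapped, and the log2 fold changes of -0.09 (SE 0.09) and -0.03 (SE 0.12) did not pass (edgeR adjusted p = 0.553 for TCEAL9 and 0.885 for TCEAL4).

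TCEAL1, a nuclear phosphoprotein reported to modulate promoter activity, and TCEAL3 have annotated exons that overlap on the same strand, so reads of the pair can be divided between them. TCEAL1 was at 32.3, 35.0 and 14.1 CPM in SIRT4 libraries, against 28.2, 30.0 and 28.7 CPM in control libraries. TCEAL3 was at 44.7, 33.6 and 41.8 CPM in SIRT4 libraries, against 39.3, 43.0 and 42.7 CPM in control libraries. SIRT4 replicate 3 was thus low for TCEAL1 alone and SIRT4 replicate 2 was low for TCEAL3 alone. TCEAL1 stood at 72.2%, 104% and 33.7% of the TCEAL3 count in SIRT4 libraries, against 71.7%, 69.8% and 67.2% in control libraries.

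Neither passed, with log2 fold changes of -0.10 (SE 0.35, adjusted p = 0.894) for TCEAL1 and -0.06 (SE 0.11, adjusted p = 0.777) for TCEAL3 in the edgeR fit. Without SIRT4 replicate 3 the value for TCEAL1 was 0.23 (edgeR adjusted p = 0.150). Their sum was 76.9, 68.5 and 55.8 CPM in SIRT4 libraries, against 67.5, 73.0 and 71.5 CPM in control libraries, and the summed feature had a log2 fold change of -0.07 (SE 0.11, edgeR adjusted p = 0.720). The 5 TCEAL members together summed to 188 ± 5.8 CPM in SIRT4 libraries and 202 ± 14.6 CPM in control libraries (SD, n = 3 each), with SIRT4 replicates 1 and 2 above control replicate 1.

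**Figure D4:**
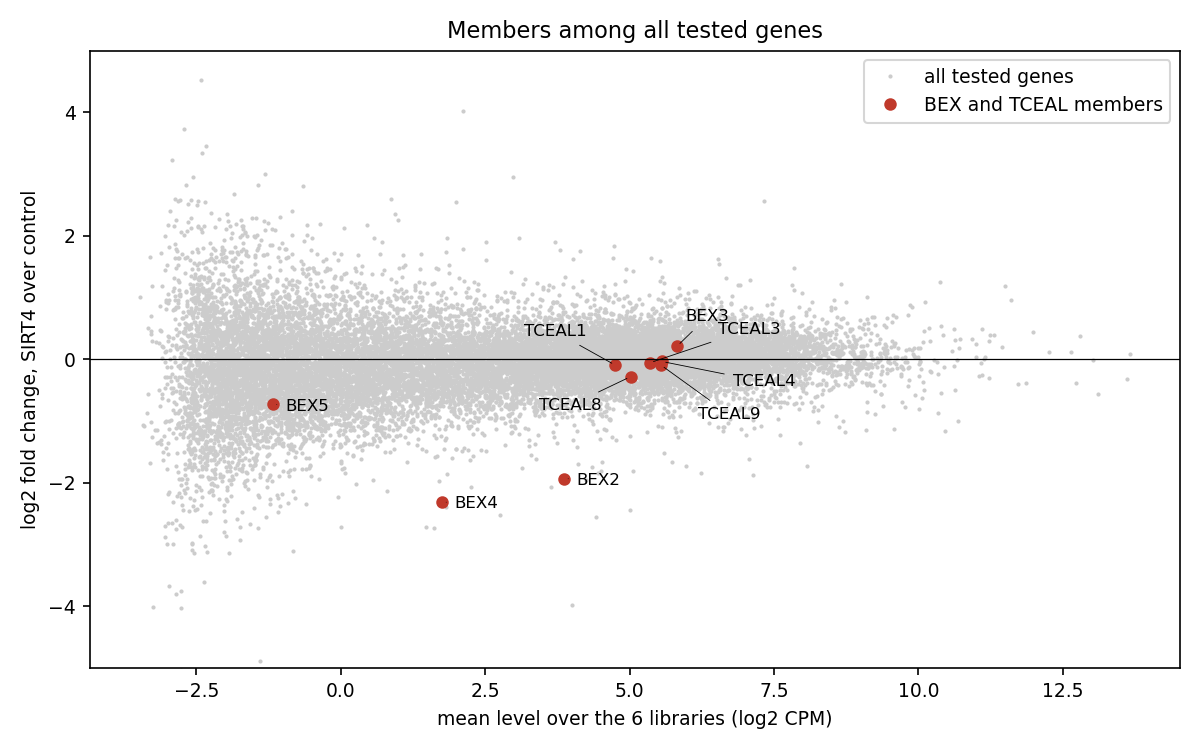
Log2 fold change of SIRT4 over control against mean level in log2 CPM for all 20786 tested genes (grey) and the 9 tested members (red), with 20 tested genes beyond a log2 fold change of 5 in either direction not drawn. BEX4 (-2.31) and BEX2 (-1.93) lie at the lower edge of the cloud at their level, and the TCEAL members lie near 0.

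The other TCEAL genes were barely present. TCEAL2 and TCEAL5 were listed at 0 in all 6 libraries. TCEAL6 had an estimated count of 3 in control replicate 1 and 0 elsewhere, and TCEAL7, which has been reported as silenced in ovarian cancer, had 8 in SIRT4 replicate 1, 13 in control replicate 1 and 0 in the rest.

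Per kilobase of annotated exon, BEX3 had the highest level in each group, at 56.5 ± 4.4 CPM per kb in SIRT4 libraries and 48.8 ± 4.8 in control libraries (SD, n = 3 each). In SIRT4 libraries it was followed by TCEAL8 at 24.1 ± 0.36, TCEAL9 at 22.9 ± 0.75, TCEAL4 at 18.6 ± 1.9, TCEAL3 at 17.4 ± 2.5 and TCEAL1 at 16.9 ± 7.1 CPM per kb. BEX2 came next at 6.39 ± 0.74, then BEX4 at 1.13 ± 0.19 and BEX5 at 0.329 ± 0.23 CPM per kb. In control libraries TCEAL8 stood at 29.3 ± 1.9, BEX2 at 24.4 ± 5.5, TCEAL9 at 24.3 ± 2.7, TCEAL4 at 19.0 ± 2.7, TCEAL1 at 18.1 ± 0.59, TCEAL3 at 18.1 ± 0.90, BEX4 at 5.61 ± 0.47 and BEX5 at 0.544 ± 0.22 CPM per kb. In SIRT4 libraries TCEAL4, TCEAL3 and TCEAL1 lay within their SDs of each other, and TCEAL8 and TCEAL9 differed by more than either SD. In control libraries the same 3 genes lay within the SD of TCEAL4, and TCEAL8, BEX2 and TCEAL9 within the SD of BEX2. BEX2 was level with TCEAL9 in control libraries and below every TCEAL member on average in SIRT4 libraries.

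Distances are between the lowest coordinates of the genes, which for BEX2 and TCEAL8, on the minus strand, are the 3′ ends. In this order BEX2 lies 94.3 kb after BEX4, and TCEAL8 lies 37.9 kb after BEX4, between them. The log2 fold changes in that order were -2.31 for BEX4, -0.28 for TCEAL8, -1.93 for BEX2, -0.09 for TCEAL9 and 0.21 for BEX3. The members with the largest differences, BEX4 and BEX2, therefore have TCEAL8 between them. From 1500 kb before BEX4 to 1000 kb after it, 25 other genes were tested, of which 1 was called higher and 1 lower. The shares over all tested genes were 9.38% and 7.67%. Several of the 25 were near the limit of measurement, among them TCEAL3-AS1 at 0.16 and SLC25A53P1 at 0.26 CPM in control libraries. Closest to the threshold among those not called were GPRASP1 (log2 fold change -0.76, edgeR adjusted p = 0.0529) and LINC00630 (-0.32, 0.0576). FAM199X was higher, at 261 ± 11.3 CPM in SIRT4 libraries and 198 ± 5.0 CPM in control libraries, and ZMAT1 was lower, at 25.0 ± 0.98 CPM in SIRT4 libraries and 38.2 ± 2.7 CPM in control libraries (SD, n = 3 each).

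**Figure D5:**
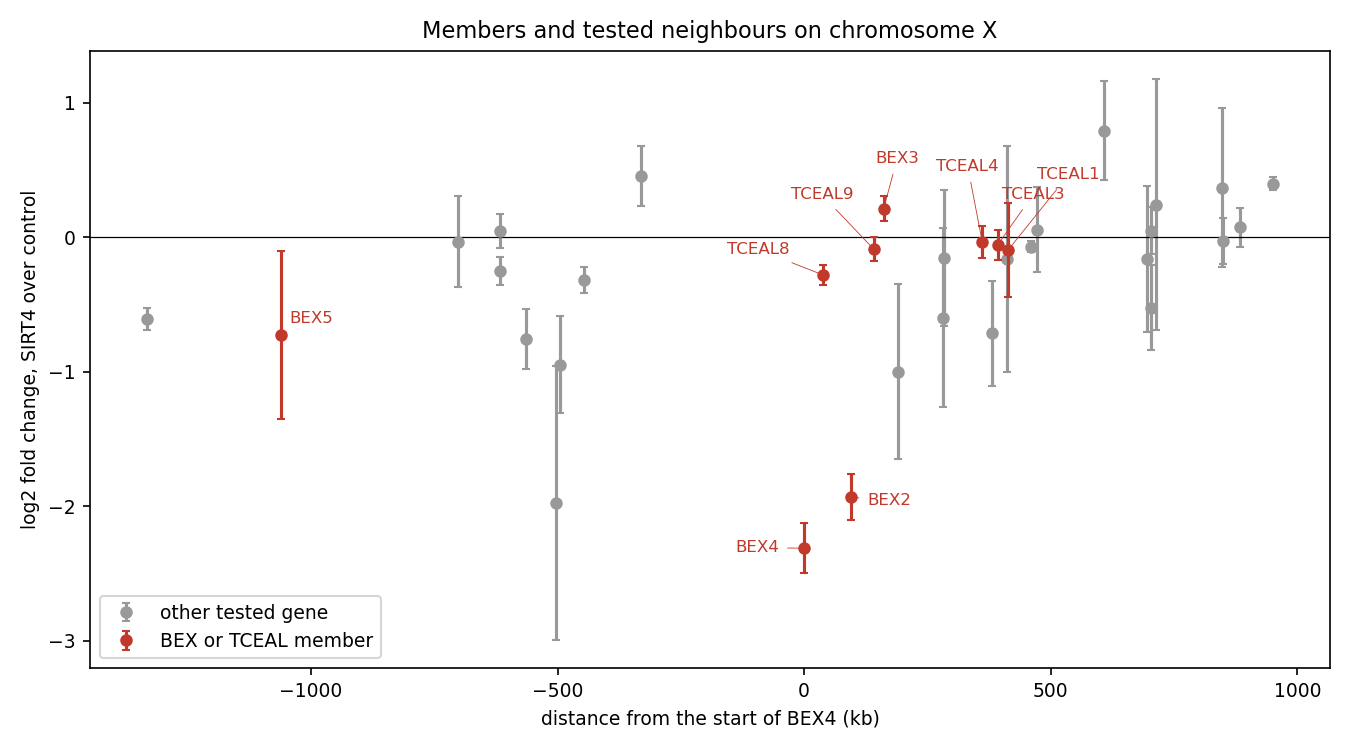
Log2 fold change of SIRT4 over control, with its standard error, for members (red) and other tested genes (grey). The position is the distance in kb of each gene's lowest coordinate from the start of BEX4. BEX4 (-2.31) and BEX2 (-1.93) lie on each side of TCEAL8 (-0.28), and TCEAL9 (-0.09) and BEX3 (0.21) follow.

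A list of 44 genes of the wider region, with the ARMCX and GPRASP relatives, had 31 tested members, of which 5 were higher and 3 lower, with a median log2 fold change of -0.15. CSTF2, a subunit of the cleavage stimulation factor, rose by 0.73 on the log2 scale and CENPI, a centromere protein, by 0.58. The relatives ARMCX1 and ARMCX2, named after their values were seen, fell by 0.38 (SE 0.08) and 0.64 (SE 0.16). The ARMCX1 call was lost when SIRT4 replicate 1 or 2 or control replicate 2 or 3 was left out (edgeR adjusted p 0.0531 to 0.0658). The ARMCX2 call was lost without any 1 library other than control replicate 3 (0.0637 to 0.103, edgeR adjusted p). Over the whole X chromosome 661 genes were tested, with 10.1% higher and 7.41% lower, near the background of 9.38% and 7.67%. The median log2 fold change on the X chromosome was -0.01.

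In a list of neurotrophin and p75NTR signalling, 3 of 19 tested genes were higher and 3 lower, with a median of 0.01. Beside this, 9.38% of all tested genes were called higher and 7.67% lower. NGFR, which encodes p75NTR, was at 3.69 ± 1.07 CPM in SIRT4 libraries and 7.16 ± 0.22 CPM in control libraries (SD, n = 3 each), a log2 fold change of -0.95 (SE 0.22). The groups did not overlap for NGFR, and it passed (edgeR adjusted p = 0.0223). NGFR lost its call without SIRT4 replicate 2 (edgeR adjusted p = 0.0557), control replicate 1 (0.0605), control replicate 2 (0.0571) or control replicate 3 (0.0686). MAGED1, another partner of p75NTR, rose by 0.58 on the log2 scale and YWHAE, a 14-3-3 protein, by 0.25. The MAGED1 call was lost without control replicate 2, at an edgeR adjusted p of 0.0555. SORT1, the receptor sortilin, rose by 0.28 on the log2 scale. It was named after its values were seen, and it lost its call without any 1 of the 6 libraries (edgeR adjusted p 0.0576 to 0.128) and with scaling by library size only (0.0702).

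Among 34 tested genes of transcription elongation, to which the TCEAL names refer, 6 were higher and 3 lower, with a median log2 fold change of -0.0035. The background was 9.38% called higher and 7.67% called lower. TCEA1, which encodes TFIIS itself, was at 215, 157 and 160 CPM in SIRT4 libraries, against 263, 277 and 268 CPM in control libraries. It fell by 0.61 on the log2 scale (SE 0.12, edgeR adjusted p = 0.0216). That call was lost without SIRT4 replicate 2 (0.0584), SIRT4 replicate 3 (0.0687), control replicate 1 (0.0681), control replicate 2 (0.0856) or control replicate 3 (0.0758), all edgeR adjusted p-values. Its paralog TCEA2 fell by 0.42 and CCNT1, the cyclin of P-TEFb, by 0.27, both named after their values were seen. The TCEA2 call was lost without SIRT4 replicate 3 (edgeR adjusted p = 0.0529). HEXIM1, an inhibitor of P-TEFb, rose by 0.48, SUPT6H by 0.36, PAF1 by 0.29 and SUPT16H, a subunit of FACT, by 0.25 on the log2 scale.

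Of 9 genes for alpha-tubulin and its acetylation, 2 were higher and none lower, with a median of -0.01. The background was 9.38% called higher and 7.67% called lower. The alpha-tubulin genes TUBA1B and TUBA1C rose by 0.68 and 0.29 on the log2 scale, though tubulin genes are near copies whose reads can be shared. SIRT2, the tubulin deacetylase, did not pass, at 180 ± 6.4 CPM in SIRT4 libraries and 182 ± 7.1 CPM in control libraries (SD, n = 3 each).

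Genes that write or read DNA methylation had 3 higher and 1 lower of 16 tested, with a median of 0.17. Of all tested genes, 9.38% were called higher and 7.67% lower. DNMT1, the maintenance methyltransferase, rose by 0.57 on the log2 scale, its partner UHRF1 by 0.64 and the demethylating enzyme TET2 by 0.63, and UHRF2 fell by 0.48. Methylation itself was not measured.

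In a list of the repressor REST and neuronal genes, 2 of 17 tested were lower and none was higher, with a median of -0.05. For this list and the neuroendocrine markers below, the background was 7.67% called lower and 9.38% called higher. REST varied among control libraries, at 56.3, 53.2 and 65.8 CPM in SIRT4 libraries and 57.8, 15.4 and 63.2 CPM in control libraries. VGF, a neuropeptide precursor, fell by 0.79 and ELAVL3, a neuronal RNA-binding protein, by 1.09 on the log2 scale. VGF lost its call without SIRT4 replicate 1 or 3 or control replicate 1 or 3 (edgeR adjusted p 0.0809 to 0.0956), and ELAVL3 without any library other than SIRT4 replicate 1 (0.062 to 0.103). Of 10 neuroendocrine markers 4 were tested and 2, CHGB and SYP, were lower, with summed levels of 41.6 to 48.3 CPM in SIRT4 libraries and 55.3 to 61.9 CPM in control libraries. INSM1, NEUROD1, INS and GCG were listed at 0, and the part of these markers in the BEX2 and BEX4 values was not tested. CHGB lost its call without any 1 of the 6 libraries (edgeR adjusted p 0.0502 to 0.0912) and SYP without any library other than SIRT4 replicate 2 (0.0572 to 0.101).

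Library patterns like those of BEX2 and BEX4 were looked for among 11985 named genes with at least 5 CPM on average in a group. Genes known only by an Ensembl ID were left out, so the places below hold among named genes. The measure was the root mean square difference of log2 CPM centred on each gene's mean over the 6 libraries. The gap between the groups, by which BEX2 and BEX4 were chosen, enters this measure. The order is thus a description that the choice largely fixed. The nearest to BEX2 were SPNS2, a sphingosine-1-phosphate transporter, at a difference of 0.12 log2 units, AC016831.6 at 0.13 and DUSP5, a phosphatase of ERK, at 0.18. SPNS2 was at 16.6, 19.1 and 17.9 CPM in SIRT4 libraries, against 69.5, 62.5 and 56.5 CPM in control libraries. The nearest to BEX4 were EGR1, an immediate early transcription factor, at 0.21, TXNIP at 0.27 and the antisense transcript MRPL23-AS1 at 0.28. BEX2 was number 6 by likeness to BEX4, and BEX4 number 18 by likeness to BEX2, at a difference of 0.30. The 6 nearest genes had log2 fold changes from -2.07 to -1.73. None of them is on the X chromosome, which holds 661 of the 20786 tested genes, so nothing is read from this.

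Reads from close copies bear on few of these values. Of the 50-base windows in the GENCODE release 29 transcripts of BEX4, 0.302% also occur in transcripts of another gene, BEX2, and of those of BEX2 2.38% occur in BEX1 or BEX4. The share was 0 for BEX3, BEX5, TCEAL8 and TCEAL9, 1.13% for TCEAL4, 14.4% for TCEAL1 and 19.3% for TCEAL3. TCEAL1 and TCEAL3 are therefore the members whose separate values are least certain as to which gene the reads came from.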

How the data were processed

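The authors deposited 1 table of whole numbers per Ensembl gene for 6 libraries, treated here as estimated counts because low values do not fall steadily from 1 (1069 genes at 1, 792 at 3 and 1278 at 4 in control replicate 1). Rounding changed none of them. The submitters' processing notes name STAR, Subread, featureCounts, DESeq2 and hg38 and give no version. Per the labels' protocols, RNA was extracted with TRIzol and libraries made with an NEBNext Ultra kit. Annotation release and strand setting: not given in the sources used here.

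Symbols were matched for 60357 of 67140 IDs, all 10 members included. Positions and exon lengths came from GENCODE release 29 (GRCh38), and promoters from RefSeq (GRCh38.p14). The windows were aligned globally with Biopython 1.88 (match 1, mismatch 0). The 20786 genes that filterByExpr kept were fitted with edgeR 4.0.16 under R 4.3.3, using TMM factors, a robust glmQLFit and glmQLFTest with no covariate. Calls used the Benjamini-Hochberg adjustment at 0.05, and each SE is the unsigned log2 fold change over sqrt(F). The procedure was tested on simulated data. Levels summed over members carry no p, because the members were chosen with results known. The members and gene lists were chosen with earlier results of these data known. Named genes were the members, the other TCEAL genes, up to 4 called genes per list with the smallest adjusted p, SIRT2, REST, NGFR, MAGED1, TCEA1, SIRT4 and the 3 genes most like BEX2 and BEX4. Also tried were size factors of DESeq2 1.42.0 and its Wald test, no TMM, no filter, a filter at 10 counts in each of 3 libraries plus 1 CPM on average, voom of limma 3.58.1, division by 4, summed paralogs, a replicate block and leaving out each library. Summing TCEAL1 and TCEAL3 was added after seeing the data. Some genes of the neurotrophin list are not reported here.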

Additional observations from a re-analysis of the deposited data

How the results depend on the processing

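Over 15 alternatives the log2 fold change ran from -2.04 to -1.73 for BEX2 and from -2.44 to -2.20 for BEX4, given as a description since these values chose the family. TCEAL8 passed the threshold in 9 of 15, and of the remaining members none passed in any. BEX5 could not be fitted under the stricter filter or after division by 4. Over the tested members the median log2 fold change, -0.10, became -0.20 with limma-voom, -0.19 with TCEAL1 and TCEAL3 summed, -0.20 with the replicate block, and from -0.29 (without SIRT4 replicate 2) to -0.070 (without control replicate 2) when 1 library was left out, with -0.24 without SIRT4 replicate 1. The median was the value of TCEAL1 in the main fit, with limma-voom, with the replicate block and without SIRT4 replicate 1. Without SIRT4 replicate 2 it was the value of TCEAL8. TCEAL1 had an SE of 0.35 in the main fit, and why its value varied was not tested. Over the whole table, 1595 genes were lower, and from 978 (without control replicate 3) to 1204 when 1 library was left out, with 1021 without SIRT4 replicate 2 and 1058 without SIRT4 replicate 3, and 1950 were higher, from 1312 to 1570. With library size only, 1676 were higher and 1883 lower, so 47.1% of calls were higher, against 55.0% with TMM. Same-numbered libraries did not deviate together (correlations of 0.0096, 0.0032 and -0.018 over genes), and not every library correlated best with its own number. With 3 libraries per group, these correlations cannot tell whether a number stands for a shared culture or batch. The replicate block gave 1450 genes higher and 1140 lower, and it ended the calls of TCEAL8 (edgeR adjusted p = 0.0782), VGF (0.0883), ELAVL3 (0.0521), CHGB (0.0701), ARMCX1 (0.0505) and SORT1 (0.110). Estimated counts of 10 to 42 limit BEX5, and the 6 libraries limit the smallest difference that could pass.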

Other observations

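The deposited estimated count of BEX2 was the same number, 433, in SIRT4 replicates 1, 2 and 3, although the library totals were 65156041, 51999089 and 59265078. BEX3 was listed at 3278 in SIRT4 replicate 2 and again in control replicate 3. GPRASP2, a relative of the family that shares a read-through gene with ARMCX5, varied widely within a group, at 1.08, 3.46 and 1.99 CPM in SIRT4 libraries and 6.37, 1.28 and 17.9 CPM in control libraries, so its log2 fold change of -1.98 had an SE of 1.02.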
